A study of Mus musculus with 267 samples.

Results

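The data describe how acetylation of histone H3 at lysine 27 (H3K27ac) differed between resting macrophages and macrophages given IL-4 for 24 hours, in cells of the wild-derived mouse strain PWK/PhJ (PWK). Every region of the PWK table entered the comparison, 60175 regions of the 305626 in the tables of 5 strains, read in 4 of the series' 267 samples. Bone marrow of female PWK mice, 8 to 12 weeks old, was grown with M-CSF into bone marrow-derived macrophages (BMDMs), and these carried no engineered allele. The basal group (2 libraries) received no IL-4, and the 24 h group (2 libraries) received recombinant mouse IL-4 at 20 ng/mL. Each region is a window of 1000 bp centred on an ATAC peak, a stretch of open chromatin, found in either condition, and 11121 regions (18.5%) have another centre within 1000 bp and so share tags with it. A value is the number of ChIP tags in the window scaled to a library of 10000000 tags, called normalized tags here. Replicates were described as biological, without stating whether they came from separate mice.

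H3K27ac marks active promoters and enhancers, and its level at an enhancer is widely read as a measure of that enhancer's activity. IL-4 binds its receptor on the macrophage, JAK kinases phosphorylate STAT6, and STAT6 dimers enter the nucleus and bind DNA. The resulting state, called alternative activation, is known for lectin receptors, arginine metabolism and chemokines of type 2 immunity, and SOCS proteins and CISH restrain the signal.

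The regions below are examples, some picked because they hold a STAT6 pattern, so nothing is read from how many hold it. Windows read in the same way at Slc7a2, Ubl3, Socs1, Il20rb, Il4i1, Inpp5a and Cish are not shown. None of these held the STAT6 pattern in the central 200 bases. They are the central 200 bases on the plus strand of mm10, the reference genome of C57BL/6J, and the PWK sequence may differ from it. Capitals mark matches to patterns searched on both strands. The STAT6 pattern was TTC and GAA with any 4 bases between them, and the AP-1 pattern was TGANTCA. The C/EBP pattern was TTGC and AA with any 2 bases between them, the PU.1 pattern GAGGAA followed by GT, and the IRF pattern a pair of GAAA with any 2 bases between them. Overlapping matches of different patterns were each counted.
Tmem26 promoter (chr10:68723068-68723267): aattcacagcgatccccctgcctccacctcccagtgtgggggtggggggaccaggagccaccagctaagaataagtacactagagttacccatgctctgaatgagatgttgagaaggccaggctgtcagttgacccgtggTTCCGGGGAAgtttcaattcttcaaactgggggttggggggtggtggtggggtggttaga
Tmem26 intron (chr10:68725641-68725840): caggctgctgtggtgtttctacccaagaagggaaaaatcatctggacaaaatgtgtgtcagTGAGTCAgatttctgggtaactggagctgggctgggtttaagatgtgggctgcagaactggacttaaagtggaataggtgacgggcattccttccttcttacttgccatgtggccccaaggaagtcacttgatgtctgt
Cd36 intron (chr5:17857412-17857611): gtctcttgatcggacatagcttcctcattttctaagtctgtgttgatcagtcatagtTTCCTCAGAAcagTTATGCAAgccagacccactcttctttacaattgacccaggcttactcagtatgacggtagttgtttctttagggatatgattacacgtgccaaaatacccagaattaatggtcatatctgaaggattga
Csf3r intergenic (chr4:126004184-126004383): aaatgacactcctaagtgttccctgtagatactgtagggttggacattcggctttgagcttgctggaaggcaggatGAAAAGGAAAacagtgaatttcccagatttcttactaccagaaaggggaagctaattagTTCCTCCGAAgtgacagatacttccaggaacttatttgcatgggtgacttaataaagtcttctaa
Tex9 intron (chr9:72485514-72485713): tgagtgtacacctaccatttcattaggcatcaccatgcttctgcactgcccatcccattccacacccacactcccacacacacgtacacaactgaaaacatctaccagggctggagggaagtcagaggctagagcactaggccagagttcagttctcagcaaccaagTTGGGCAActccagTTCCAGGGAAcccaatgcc
Il31ra intron (chr13:112551708-112551907): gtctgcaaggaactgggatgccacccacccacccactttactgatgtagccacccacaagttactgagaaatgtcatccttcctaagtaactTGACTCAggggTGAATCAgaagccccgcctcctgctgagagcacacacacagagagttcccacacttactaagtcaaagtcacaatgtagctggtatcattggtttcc
Mgl2 promoter (chr11:70130006-70130205): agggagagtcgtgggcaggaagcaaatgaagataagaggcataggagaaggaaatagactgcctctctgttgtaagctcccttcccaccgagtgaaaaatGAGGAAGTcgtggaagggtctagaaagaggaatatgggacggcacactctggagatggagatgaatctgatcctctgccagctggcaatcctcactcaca
Cx3cr1 promoter (chr9:120068214-120068413): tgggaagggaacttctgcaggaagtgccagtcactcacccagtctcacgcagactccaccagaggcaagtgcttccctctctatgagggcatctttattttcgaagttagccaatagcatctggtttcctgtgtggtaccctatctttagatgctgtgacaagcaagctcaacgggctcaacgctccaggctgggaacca
The Tmem26 promoter held the STAT6 pattern as TTCCGGGGAA, and the Tmem26 intron held an AP-1 pattern. The Cd36 intron held, in C57BL/6J sequence, the STAT6 pattern as TTCCTCAGAA followed by a C/EBP pattern. The authors report a PWK variant that alters a C/EBP motif at a Cd36 enhancer. Whether that variant lies in this window was not checked. In the Csf3r region an IRF pattern preceded the STAT6 pattern TTCCTCCGAA, and in the Tex9 intron a C/EBP pattern preceded TTCCAGGGAA. The Il31ra intron carried 2 AP-1 patterns, the Mgl2 promoter carried a PU.1 pattern, and the Cx3cr1 promoter window held none of the patterns searched.

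The libraries held 5825127 and 12771304 tags (basal) and 14849294 and 10478026 tags (24 h), so that 1 read was worth 0.673 to 1.72 normalized tags. The second 24 h library stood apart: 38.1% of its tags fell in the regions, against 53.5% to 55.2% in the other 3. The median over all regions was 30.9 and 35.2 normalized tags in the basal libraries and 30.3 and 29.6 in the 24 h libraries. The median log2 fold over all regions was -0.18 with library totals and 0.02 after median-ratio scaling, and log2 folds below are read against -0.18. Macrophage identity was checked at promoters. Of 10 macrophage markers 9 had a promoter region, and their summed H3K27ac was 2764 and 3050 normalized tags in the basal libraries and 2639 and 1544 in the 24 h libraries. No promoter region was listed for any of the T cell, fibroblast or erythroid markers. Of 6 neutrophil markers 2 had one, summing to 465 and 131 in the basal libraries and 288 and 99.3 in the 24 h libraries. Of 5 dendritic cell markers 2 had one, summing to 1.72 and 19.6 basal and 16.2 and 33.4 at 24 h. Of 6 mast cell, basophil and eosinophil markers only Siglecf had one, with 22.3 and 125 basal and 55.9 and 166 at 24 h. The B cell markers had 1, at no more than 1.72 in any library. The part of the low second 24 h library and of these other cell types in the results was not tested.

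H3K27ac was higher after IL-4 at 1867 regions (3.1% of all) and lower at 1814 (3.01%), by a fold rule of at least 2.5-fold between group means and at least 16 normalized tags in either group. The fold rule is not a test, so these regions are called higher and lower. Of the higher regions, 1725 had both 24 h libraries above both basal libraries, and 1659 of the lower regions had both below. Over all regions 8760 (14.6%) had both above and 15202 (25.3%) had both below. The fold rule uses these same values, so nothing is read from the members' counts. Median-ratio scaling gave 2576 higher and 974 lower, which moved the higher share of changed regions from 50.7% to 72.6%. All 1867 higher regions were also higher after that scaling, whereas 974 of the 1814 lower regions stayed lower. Without the second 24 h library the counts were 2111 higher and 2792 lower, and without the first they were 2260 and 3974. Leaving out the first basal library gave 2249 and 3210, and leaving out the second gave 3053 and 2139.

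With the spread between replicates taken into account, H3K27ac rose at 293 regions (0.487%) and fell at 29 (0.0482%) in limma at a Benjamini-Hochberg adjusted p under 0.05. At an unadjusted p under 0.05 there were 3105 and 3258. In edgeR's quasi-likelihood test 125 rose and 3 fell, and in DESeq2 575 rose and 67 fell. With median-ratio scaling limma called 95 rises and 2 falls. With the replicate number as a block it called 2753 rises and 2895 falls. Whether same-numbered libraries share a culture was not stated, so the calls below for H3K27ac are without the block. Same-numbered H3K27ac libraries did deviate together (correlation of deviations 0.44). Of the 102 named regions, 69 that did not pass without the block passed with it. Not passing below is therefore not read as no change. No region was called by limma without either 24 h library. The calls without the first basal library were 552 rises and 206 falls, and without the second they were 1424 and 235. Below, rose and fell are used for limma calls only. The limma standard error had a median of 0.57 on the log2 scale, and 289 of the 1867 higher and 28 of the 1814 lower regions stood out from the replicate spread by this test.

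**Figure D1:**
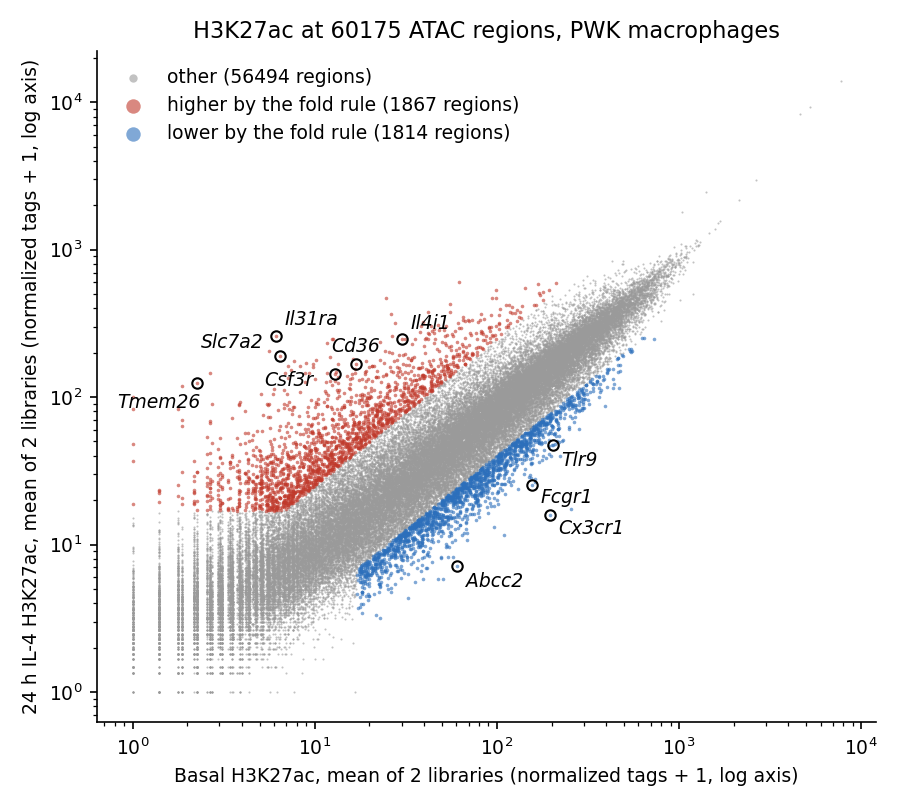
Mean H3K27ac of the 2 basal libraries (x axis) against that of the 2 libraries after 24 h IL-4 (y axis), in normalized tags plus 1 on log axes, for each of 60175 regions. The 1867 higher regions (red) start from low basal levels, the 1814 lower regions (blue) lie along the other edge of the cloud, and black rings mark named regions.

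The higher regions had low basal values. The fold rule uses these same values, so low basal levels of higher regions and low 24 h levels of lower regions follow in part from it. Their median was 8.58 and 11.8 normalized tags in the basal libraries and 49.2 and 48.7 in the 24 h libraries, and 1170 of them (62.7%) had a basal mean under 16, against 35.3% of all regions. The lower regions had medians of 58.4 and 70.5 in the basal libraries and 20.2 and 20.0 in the 24 h libraries. At 24 h, 734 lower regions (40.5%) had a mean under 16, near the 36.3% of all regions.

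The largest rise was in the first intron of Tmem26, a gene for a transmembrane protein, at chr10:68725240-68726240. H3K27ac there was 1.72 and 0.78 normalized tags in the basal libraries and 162 and 84.0 in the 24 h libraries, a log2 fold of 5.74 ± 0.62 (SE, adjusted p = 0.0015, limma). The basal libraries held 2 reads in all, so the ratio of 121 had an exact 95% counting interval of 33.2 to 1002. Both 24 h libraries were far above both basal libraries.

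An intron of Il31ra, a subunit of the IL-31 receptor, followed at chr13:112551307-112552307. Its values were 1.72 and 8.61 basal and 286 and 233 at 24 h, a log2 fold of 5.66 ± 0.59 (adjusted p = 0.0015). An intron of Tex9 at chr9:72485113-72486113 held 3.43 and 0 basal and 63.3 and 116 at 24 h (log2 fold 5.36 ± 0.73, adjusted p = 0.0030). Its basal libraries held 2 reads in all, and the ratio of 78.9 had a counting interval of 21.6 to 656. An intergenic region near Slc7a2, which encodes a cationic amino acid transporter that brings arginine into the cell, lay at chr8:40855035-40856035. It held 8.58 and 2.35 basal and 288 and 88.8 at 24 h (log2 fold 4.83 ± 0.65, adjusted p = 0.0030). The regions described here were chosen for groups that do not overlap.

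The other regions among the 10 largest rises lay at Rhbdl1, Camsap1, Kcnn3, Agpat5, Prkg1 and Shisa2, with log2 folds of 4.82 to 5.62 and adjusted p of 0.0020 to 0.021. The Camsap1 intron had no read in either basal library, 59.3 and 35.3 normalized tags at 24 h, and was at least 30.6-fold higher when the basal pair was set to the 3 reads that a count of 0 allows. At 3 of them the 24 h libraries differed widely. Kcnn3, a potassium channel gene, held 212 and 25.8 normalized tags, Prkg1, a cGMP-dependent kinase gene, held 121 and 17.2, and Agpat5, a lipid acyltransferase gene, held 379 and 86.9. In edgeR, Kcnn3, Agpat5, Prkg1 and Shisa2 missed the threshold (adjusted p of 0.062 to 0.12). Fitted folds of regions with so few basal reads depend on the pseudocount.

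The largest fall was at the promoter of Cx3cr1, the receptor for fractalkine, at chr9:120067813-120068813. H3K27ac was 163 and 228 normalized tags in the basal libraries and 18.2 and 11.5 in the 24 h libraries, a log2 fold of -3.65 ± 0.49 (adjusted p = 0.0029). Each of its 5 regions was lower by the fold rule, and 3 fell. The promoter of Fcgr1, the high-affinity IgG receptor, at chr3:96293523-96294523, held 87.6 and 224 basal and 17.5 and 31.5 at 24 h (log2 fold -2.52 ± 0.54, adjusted p = 0.048). An intron of Abcc2, a transporter gene, at chr19:43784483-43785483, held 49.8 and 69.7 basal and 4.71 and 7.64 at 24 h (log2 fold -3.09 ± 0.57, adjusted p = 0.023). Regions at Map7, with 32.6 and 60.3 basal and 2.02 and 7.64 at 24 h, and at Cd4, with 61.8 and 43.9 basal and 8.75 and 5.73 at 24 h, also fell (adjusted p = 0.046 and 0.045). The falls of Fcgr1, Abcc2, Map7 and Cd4 missed the threshold in edgeR (adjusted p of 0.095 to 0.19).

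Among the 10 largest differences downward, 5 did not pass the test. St3gal6, a sialyltransferase gene, had a log2 fold of -3.00 ± 0.65 (adjusted p = 0.051), and Tram1, Pou2f2, Bmf and Sipa1l1 had log2 folds of -2.55 to -2.76 with adjusted p of 0.068 to 0.14.

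**Figure D2:**
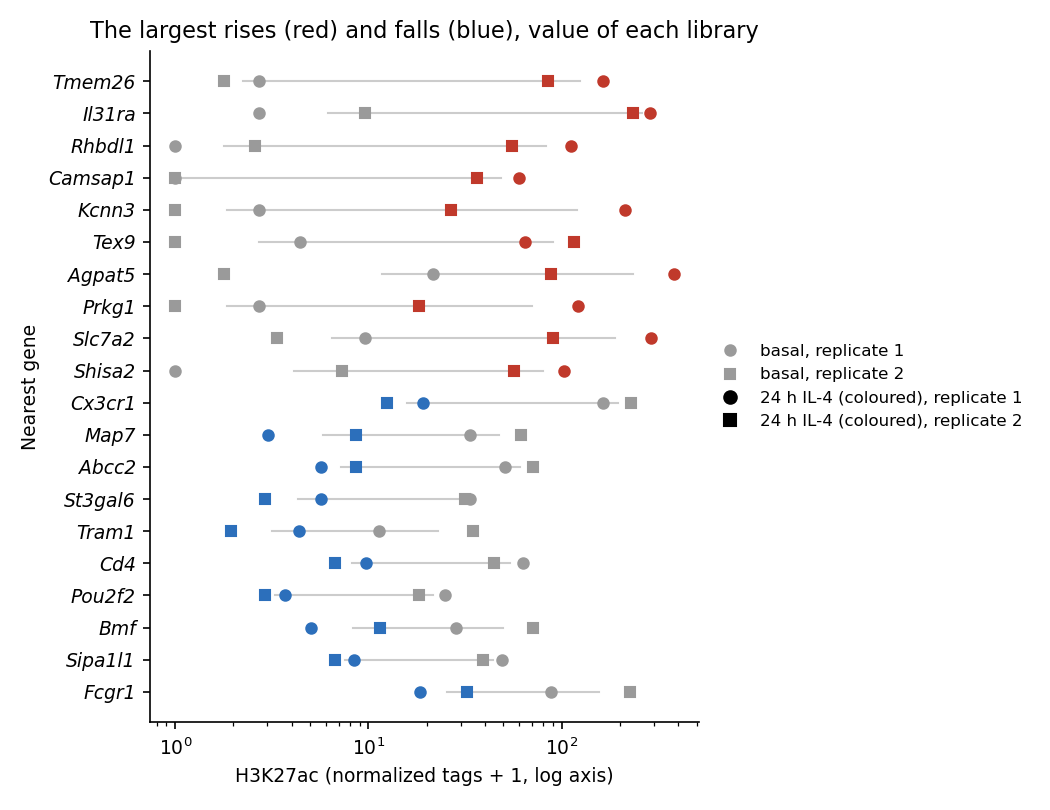
H3K27ac of each library, in normalized tags plus 1 on a log axis, at the 10 largest differences in each direction, named by the nearest gene start. Grey points are basal libraries, coloured points 24 h libraries (red for regions higher at 24 h, blue for lower), circles replicate 1 and squares replicate 2. The regions were chosen for groups that do not overlap, and the higher Il31ra region holds 1.72 and 8.61 normalized tags in the basal libraries and 286 and 233 in the 24 h libraries.

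A smaller share of promoters than of distal regions met the fold rule. Of 10598 promoter regions 73 (0.689%) were higher and 87 (0.821%) lower, and 12 rose and 4 fell. Of 45917 intronic or intergenic regions 1695 (3.69%) were higher and 1656 (3.61%) lower, and 266 rose and 22 fell. Within them, introns had 932 higher (3.62%) and 766 lower (2.97%), and intergenic regions had 763 higher (3.79%) and 890 lower (4.42%). After median-ratio scaling the promoter counts were 102 higher and 52 lower and the intergenic counts 1035 and 486, so the direction of the balance turned with the scaling. Promoters had more H3K27ac in the basal state, with a median of 102 normalized tags against 25.9 in intronic and intergenic regions. The share changed was also lowest near gene starts: 0.888% higher and 1.13% lower within 1 kb, against 4.46% and 4.27% beyond 50 kb. Among the smaller classes, exons had 31 higher and 15 lower of 1165, transcription end sites 35 and 31 of 1033, 3' UTRs 17 and 16 of 676, and 5' UTRs 6 and 7 of 524.

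The promoters with the largest rises were those of Il20rb, Mgl2, Tmem26 and Pkp2. The promoter of Il20rb, a subunit of receptors for IL-20 family cytokines, held 1.72 and 1.57 normalized tags in the basal libraries and 37.7 and 43.9 in the 24 h libraries (log2 fold 3.98 ± 0.64, adjusted p = 0.0086). Its basal libraries held 3 reads in all, and the ratio of 24.96 had a counting interval of 8.30 to 123. The promoter of Mgl2, a galactose-type lectin and a standard marker of alternative activation, at chr11:70129605-70130605, held 1.72 and 23.5 basal and 88.9 and 133 at 24 h (log2 fold 3.75 ± 0.77, adjusted p = 0.039). It did not pass in edgeR (adjusted p = 0.16). The Tmem26 promoter region at chr10:68722667-68723667 held 8.58 and 16.4 basal and 150 and 121 at 24 h (log2 fold 3.39 ± 0.51, adjusted p = 0.0064). The promoter of Pkp2, a desmosome protein gene, held 3.43 and 10.96 basal and 68.7 and 77.3 at 24 h (adjusted p = 0.019). That of Zbtb46, a transcription factor of dendritic cells, held 0 and 2.35 basal and 14.1 and 28.6 at 24 h and missed the threshold (adjusted p = 0.055). Of 12 regions near dendritic cell markers 2 were higher and 2 lower (16.7% each, against 3.1% and 3.01% of all). Both higher regions were at Zbtb46. The others that changed were lower, a region near Siglech with 20.6 and 38.4 basal and 8.08 and 6.68 at 24 h and a region near Xcr1 with 106 and 180 basal and 33.0 and 58.2 at 24 h, and none of the 12 passed limma.

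Chromatin opening split the regions further. Of 11186 regions with an ATAC peak at 24 h only, 956 (8.55%) were higher and 95 (0.849%) lower. Of 11488 with a peak in basal cells only, 114 (0.992%) were higher and 546 (4.75%) lower. Of the 37501 open in both conditions 797 (2.13%) were higher and 1173 (3.13%) lower. Regions with a peak at 24 h only made up 51.2% of the higher regions and 5.24% of the lower regions, against 18.6% of all. Thus 42.7% of the higher and 64.7% of the lower regions had an ATAC peak in both conditions. The median log2 fold was 0.27 at regions open at 24 h only, -0.27 at those open in basal cells only and -0.24 at those open in both. These are medians of the limma log2 fold. Median-ratio scaling was an alternative chosen after seeing the data. Under it the log2 ratio of group means, another measure, had medians of 0.44, -0.08 and -0.04.

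**Figure D3:**
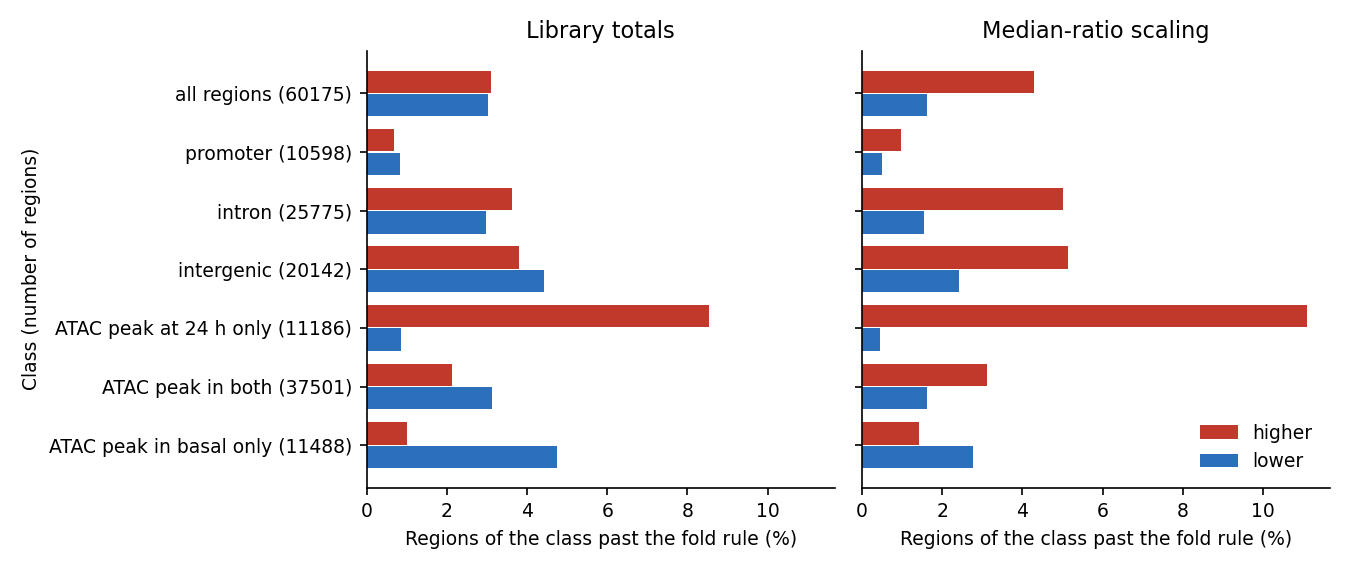
Percent of the regions in each class that were higher (red) or lower (blue) by the fold rule, with the authors' library totals (left) and after median-ratio scaling (right). Promoters have the shortest bars for higher regions under both scalings, and 8.55% of regions with an ATAC peak at 24 h only were higher with library totals.

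Some genes held several changed regions. How many would be expected from the number of regions per gene was not tested, and neighbouring windows can share tags. The higher regions lay nearest 1270 genes, 371 of them with 2 or more, and the lower regions nearest 1228 genes, 363 with 2 or more, and 58 genes had both. Smurf1, a ubiquitin ligase gene, had 9 higher of 15 regions, and Inpp5a, an inositol phosphatase gene, 9 of 21. Tmem26 had 7 of 11, the ubiquitin-like gene Ubl3 7 of 14, and Fam129b 7 of 26. Socs1, the inhibitor of JAK kinases, had 7 higher of 8 regions, 6 of which rose, and the neighbouring gene Rmi2 had 6 of 8. At the Inpp5a region chr7:139350262-139351262 H3K27ac was 15.5 and 57.9 in the basal libraries and 296 and 255 in the 24 h libraries (log2 fold 3.15 ± 0.55, adjusted p = 0.017). Among the genes with most lower regions were Trps1, a GATA-type repressor gene (9 of 20), St3gal6 (8 of 9), Nfatc2, a calcium-responsive transcription factor gene (8 of 18), and Dkk2 (8 of 17). Dscam, Smad3 and Oxtr had 6 each, of 9, 13 and 9 regions. None of the lower regions of these 7 genes fell in limma.

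Genes of the IL-4 pathway were read from lists, in the order of their roles. Members and lists were chosen with earlier results of these data known, so their shares are described only. At the receptor and JAK-STAT6 genes, 1 of 46 regions was higher (2.17%, against 3.1% of all), at Jak1. Lower regions numbered 2 (4.35%, against 3.01% of all), at Il4ra and Stat6, and none rose or fell. The list's median log2 fold was -0.58 against -0.18 over all regions. The feedback inhibitors had 11 higher of 55 regions (20.0% against 3.1% of all) and 0 lower, and 8 rose, against 0.487% of all regions. These 8 belonged to Socs1 and Cish. Of the 11 higher regions, Socs1 held 7 and Cish 2. None of the 14 regions at Socs3 or the 15 at Ptpn1 was higher or lower. The median log2 fold of the feedback inhibitors was -0.08. At chr16:10783907-10784907, over the second exon of Socs1, H3K27ac was 13.7 and 4.70 in the basal libraries and 229 and 128 in the 24 h libraries (log2 fold 4.23 ± 0.57, adjusted p = 0.0029). The promoter of Cish, an SH2 protein that dampens STAT signalling, held 34.3 and 15.7 basal and 195 and 121 at 24 h (log2 fold 2.67 ± 0.51, adjusted p = 0.028). Cish missed the threshold in edgeR (adjusted p = 0.060).

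The lectins and surface receptors of alternative activation had 26 higher of 90 regions (28.9%, against 3.1% of all) and 1 lower. Of the 90 regions 8 rose, at Mgl2, Tmem26, Cd36 and Cdh1, against 0.487% of all regions. Tmem26 alone held 7 of the higher regions and 3 of the rises. An intron of Cd36, a scavenger receptor that takes up lipids, at chr5:17857011-17858011, held 15.5 and 16.4 basal and 230 and 103 at 24 h (log2 fold 3.20 ± 0.51, adjusted p = 0.0088). An intron of Cdh1, the gene of E-cadherin, held 22.3 and 16.4 basal and 108 and 111 at 24 h (log2 fold 2.45 ± 0.48, adjusted p = 0.032). Mrc1, the mannose receptor, had 22.3 and 13.3 basal and 88.9 and 55.4 at 24 h at its most changed intron, with an adjusted p of 0.13. The lower region was at Cd163, a haemoglobin scavenger receptor, with an adjusted p of 0.22.

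The enzymes and secreted effectors had 8 higher of 95 regions (8.42%, against 3.1% of all) and 0 lower. Of the 95 regions 3 rose, at Slc7a2 and Il4i1, against 0.487% of all regions. An intron of Il4i1, an amino acid oxidase named for its induction by IL-4, at chr7:44826488-44827488, held 25.8 and 32.9 basal and 297 and 197 at 24 h (log2 fold 3.01 ± 0.47, adjusted p = 0.0071). The higher region assigned to Arg1, arginase 1, lay 25388 bp from its start in an exon of another transcript. It held 39.5 and 57.9 basal and 182 and 160 at 24 h without passing the test (adjusted p = 0.11). The transcription factors of the IL-4 response had 7 higher and 8 lower of 126 regions (5.56% and 6.35%, against 3.1% and 3.01% of all). None rose or fell. The most changed region near Egr2 held 48.1 and 96.3 basal and 226 and 165 at 24 h (adjusted p = 0.24), and 3 of 4 regions near Egr3 were lower. Chemokines had 4 higher of 53 (7.55%), at Ccl17 and Ccl24, and 1 lower (1.89%), at Ccl3, with no call.

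Chemokine and growth factor receptors had 6 higher and 8 lower of 88 regions (6.82% and 9.09%, against 3.1% and 3.01% of all). Of these regions 2 rose and 3 fell, against 0.487% and 0.0482% of all. The falls were those of Cx3cr1. The rises were at Csf3r, the G-CSF receptor, and Flt1, a VEGF receptor. The Csf3r region, 20267 bp from the start at chr4:126003783-126004783, held 13.7 and 10.2 basal and 203 and 83.0 at 24 h (log2 fold 3.35 ± 0.54, adjusted p = 0.0093). The Flt1 region, in the 5' UTR, held 1.72 and 5.48 basal and 25.6 and 60.1 at 24 h (log2 fold 3.26 ± 0.68, adjusted p = 0.044).

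Lists of innate sensing and clearance held more lower than higher regions by the fold rule. Toll-like and pattern receptors had 12 lower of 83 regions (14.5% against 3.01% of all) and 1 higher, but none fell, and median-ratio scaling gave 4 lower and 3 higher. The Tlr9 promoter held 163 and 244 basal and 35.0 and 57.3 at 24 h (log2 fold -2.13 ± 0.48, adjusted p = 0.063). Complement and phagocytosis genes had 7 lower of 46 regions (15.2%, against 3.01% of all) and 0 higher. The 7 lay at C1qb, C1qc, Mertk, Gas6 and Fcgr1. Of the 46 regions 1 fell, at Fcgr1, against 0.0482% of all regions. Inflammatory and NF-kB genes had 7 higher and 12 lower of 125 (5.60% and 9.60%, against 3.1% and 3.01% of all), with no call. Their lower regions included 4 of 8 at Nlrp3, the inflammasome sensor, and 4 of 15 at Nfkbiz. Interferon-stimulated genes had 0 higher and 1 lower (2.13%) of 47 regions. Macrophage lineage factors had 2 and 2 of 118 (1.69% each), and antigen presentation genes 2 (3.17%) and 0 of 63. Lipid genes had 3 and 1 of 108 (2.78% and 0.926%), and cell cycle genes 1 and 1 of 52 (1.92% each). Over all regions the shares were 3.1% and 3.01%. Housekeeping genes had none in either direction among 44 regions and a median log2 fold of -0.40.

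RNA polymerase II (Pol II), measured in 3 other libraries a group, differed in the same direction. At the higher regions the median Pol II log2 fold was 1.31, with quartiles of 0.74 and 1.92, and it was -0.93 at the lower regions and -0.03 over all regions. The Pol II median at the higher regions was 5.64, 5.60 and 5.30 normalized tags in the basal libraries and 17.3, 16.2 and 16.3 in the 24 h libraries. At the lower regions it was 16.2, 14.7 and 15.9 basal and 7.91, 6.46 and 8.55 at 24 h. Pol II rose at 464 of the 1867 higher regions (24.9%), against 1.44% of all regions, and fell at 110 of the 1814 lower regions (6.06%), against 0.281%. With the replicate number as a block it rose at 1082 (58.0%, against 5.96% of all) and fell at 740 (40.8%, against 3.82%). The unblocked counts depended on which library was left out. Without the second 24 h library they were 76 and 3, and without the third 145 and 33. Without the second basal library they were 172 and 12, and without the third 107 and 3. Without the first 24 h library they were 343 and 93, and without the first basal library 417 and 102. At the higher promoters the median Pol II log2 fold was 1.63, with 30 of 73 called (61 with the block), and at the lower promoters it was -1.06, with 15 of 87 called (55 with the block).

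At the Tmem26 intron Pol II was 3.84 ± 1.04 (SD, n = 3) normalized tags in basal cells and 257 ± 42.8 at 24 h (limma adjusted p = 1.2e-06). At the Il31ra intron it was 0.703 ± 0.700 and 123 ± 32.3 (limma adjusted p = 1.0e-05). The Cx3cr1 promoter had 86.0 ± 11.1 and 2.62 ± 1.48 (limma adjusted p = 5.2e-05), and the Fcgr1 promoter 47.5 ± 15.6 and 5.81 ± 4.11 (limma adjusted p = 0.0058). Over the Socs1 exon it was 12.9 ± 5.50 and 174 ± 15.1 (limma adjusted p = 5.2e-05). At Mrc1, where H3K27ac missed the threshold, Pol II was 6.76 ± 1.73 and 110 ± 41.6 (limma adjusted p = 0.00014). At Prkg1, by contrast, the Pol II log2 fold was 0.42 with a limma adjusted p of 0.92.

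H3K4me2, a methylation mark of promoters and enhancers, had a median log2 fold of 0.68 at the higher regions, -0.46 at the lower regions and -0.18 over all. It rose at 130 higher regions (6.96%, against 0.311% of all) and fell at 2 lower regions (0.110%, against 0.00332%). At the 73 higher promoters its median was -0.04. H3K4me3, a mark of active promoters, had medians of 0.89, -0.04 and 0.09 at the higher, lower and all regions, and it rose at 15 higher regions (0.803%, against 0.0316%) and fell at 2 lower regions (0.110%, against 0.00332%). Its level was low at the intronic and intergenic higher regions, 1.49 normalized tags basal and 3.50 at 24 h. At promoters the H3K4me3 median log2 fold was 0.66 for the higher and -0.64 for the lower. Without either 24 h library of the mark, limma called neither H3K4me2 nor H3K4me3 at these regions. Without the first basal library H3K4me2 had 79 rises and H3K4me3 54 rises and 6 falls. Without the second basal library H3K4me3 had 29 rises and 5 falls. Under median-ratio scaling 16 H3K4me2 rises and 0 H3K4me3 rises were called.

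**Figure D4:**
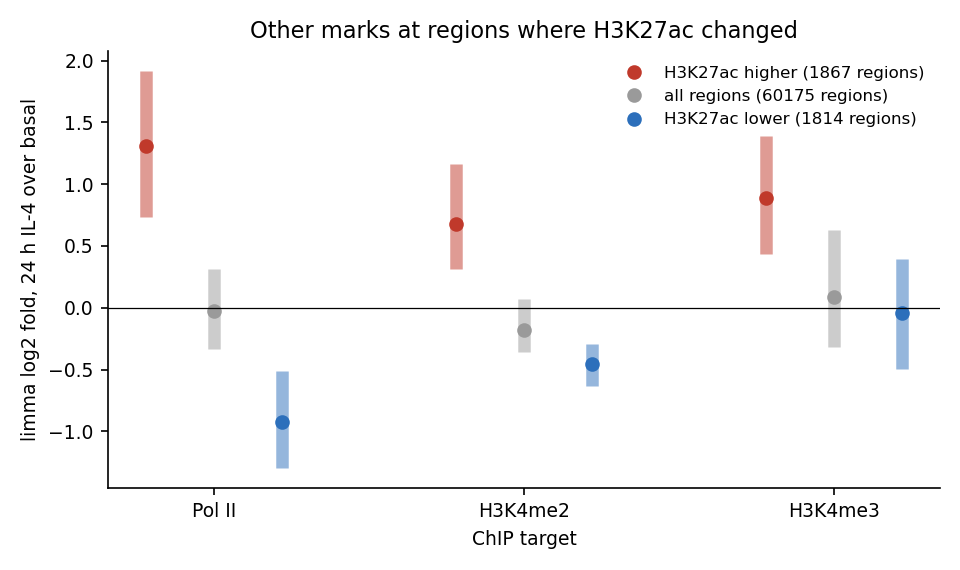
Log2 fold of 24 h IL-4 over basal cells (y axis) for Pol II, H3K4me2 and H3K4me3 at the regions where H3K27ac was higher (red), lower (blue) or at all regions (grey). Points are medians and bars run from the lower to the upper quartile over regions, and Pol II has the widest separation, 1.31 against -0.93.

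Transcription factor peaks were compared with the changed regions by overlap of at least 1 bp. STAT6, the factor activated by IL-4, had a 24 h peak at 78.0% of the higher, 62.2% of the lower and 49.8% of all regions. Its basal peaks went the other way, with 12.1% of the higher, 45.5% of the lower and 22.6% of all regions. A STAT6 peak at 24 h only was found at 66.4% of the higher and 20.4% of the lower regions, against 28.9% of all. EGR2, a zinc finger factor induced by IL-4, had a 24 h peak at 29.6% of the higher, 8.43% of the lower and 21.5% of all regions. Among intronic and intergenic regions these shares were 28.3%, 7.37% and 14.9%, and among promoters 56.2%, 26.4% and 49.9%. For PPARg, a lipid-sensing nuclear receptor, the shares were 45.6%, 31.9% and 37.7%. The lineage factors PU.1 and C/EBPb had 24 h peaks at 72.5% and 56.3% of the higher regions, 81.1% and 53.0% of the lower, and 70.7% and 44.3% of all.

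Counted the other way, regions that had a PU.1 peak at 24 h only had the largest higher share of the 5 factors. Of 2702 such regions 386 (14.3%) were higher and 17 (0.629%) lower. The share higher was 8.86% where a C/EBPb peak was found at 24 h only, 7.13% for STAT6, 5.85% for EGR2 and 5.13% for PPARg, against 3.1% of all regions. Where a STAT6 peak was present in both conditions, 1.72% were higher and 6.01% lower. From 0 to 5 factors with a 24 h peak, the higher share was 1.43%, 1.69%, 2.87%, 3.62%, 5.04% and 6.04%. The lower share was 2.39%, 2.55%, 2.84%, 4.04%, 3.23% and 1.96%. Peaks and H3K27ac were read in the same cells and conditions, and peak lists carry no replicate spread here.

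**Figure D5:**
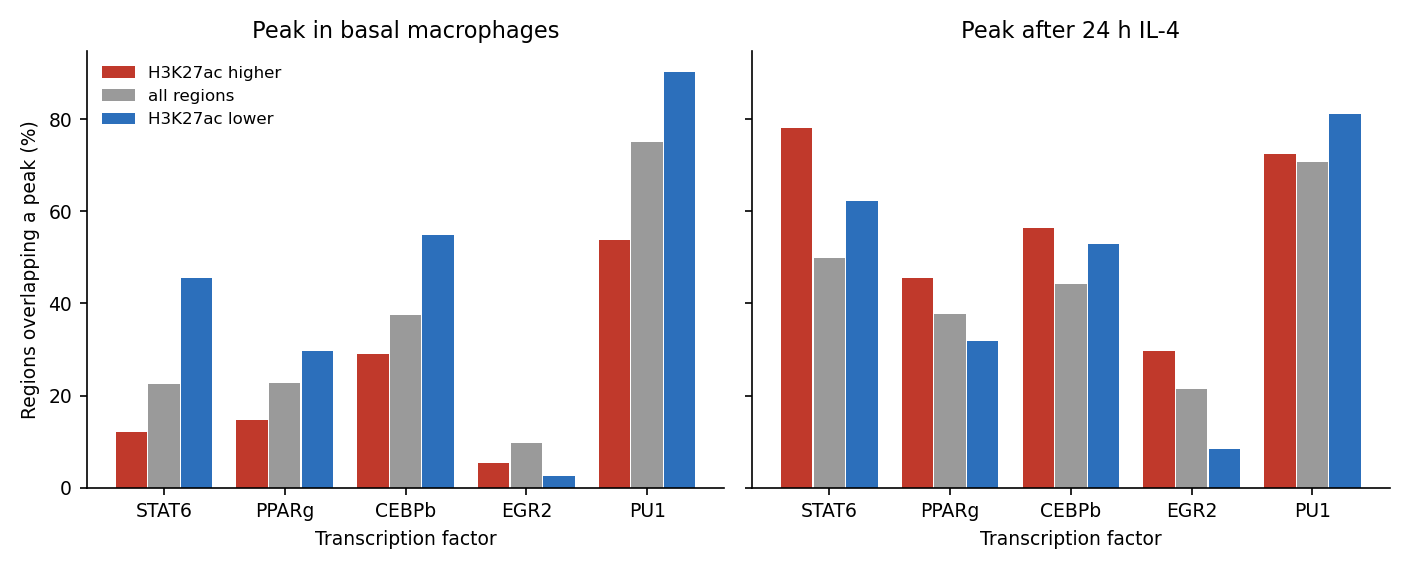
Percent of regions overlapping a peak of 5 transcription factors (PU1 is PU.1 and CEBPb is C/EBPb) in basal macrophages (left) and after 24 h IL-4 (right), for regions where H3K27ac was higher (red), lower (blue) and for all 60175 regions (grey). STAT6 peaks overlap 12.1% of the higher regions in basal cells and 78.0% after IL-4.

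Patterns were counted in the central 300 bp of each region. The STAT6 pattern was found in 29.7% of the higher and 4.96% of the lower regions and in 52.6% of the regions that rose, against 7.55% of all 60163 regions with reference sequence. In promoters the share was 19.2% of the higher against 4.54% of all promoters. AP-1 patterns were in 31.7% of the higher, 17.97% of the lower and 20.8% of all regions. C/EBP patterns were in 19.3%, 21.2% and 15.1%, and PU.1 patterns in 9.93%, 16.2% and 11.6%. IRF patterns were in 2.63%, 4.52% and 4.00%. The EGR pattern GTGGGCG was in 5.31%, 1.16% and 5.26%. Its shares differed by class, with 5.07% of the higher, 1.03% of the lower and 2.87% of all intronic and intergenic regions, and 13.7%, 4.60% and 15.3% of promoters. The MAF pattern TGCTGAC was in 9.39%, 9.21% and 7.41%. The NF-kB pattern (GGGA, any base, TT, any base, CC) was in 1.83%, 2.59% and 1.55%, and the nuclear receptor pattern (AGGTCA, any base, AGG) in 1.503%, 0.937% and 0.927%. Median GC content was 48.7% in the higher and lower regions and 50.7% in all.

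STAT6 peak and pattern were then combined. Of 2027 regions with a STAT6 peak at 24 h only and the pattern, as at Tmem26 and Cd36, 428 (21.1%) were higher and 25 (1.23%) lower. With the peak but no pattern, 811 of 15344 (5.29%) were higher. With the pattern but no 24 h peak, 24 of 1279 (1.88%) were higher. The median log2 folds were 0.42, -0.08 and -0.09.

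The same regions were read in BMDMs of 4 other strains, C57, BALB, NOD and SPRET, in libraries the PWK fold rule did not use. A PWK region was matched where another strain's region had its centre within 500 bp, and the same fold rule was applied. In C57 the rule called 3.46% of regions higher and 7.55% lower, in BALB 2.84% and 5.13%, in NOD 3.24% and 5.14%, and in SPRET 2.64% and 0.939%. Of the PWK higher regions with a match, 702 of 1287 (54.5%) were also higher in C57, 587 of 1116 (52.6%) in BALB, 747 of 1308 (57.1%) in NOD and 430 of 970 (44.3%) in SPRET. Over all matched PWK regions these shares were 3.49%, 2.59%, 3.19% and 2.37%. The share of each strain's matched higher regions that were higher in PWK was 43.7%, 52.9%, 48.3% and 47.4%.

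Of the PWK lower regions with a match, 878 of 1409 (62.3%) were lower in C57, 745 of 1451 (51.3%) in BALB, 822 of 1574 (52.2%) in NOD and 148 of 1112 (13.3%) in SPRET. Over all matched regions these shares were 8.91%, 4.97%, 5.21% and 1.01%. In each strain, between 0 and 2 PWK changed regions of a direction were changed the opposite way. The median log2 fold at PWK lower regions was -1.53 in C57, -1.34 in BALB, -1.36 in NOD and -0.77 in SPRET, and at PWK higher regions it was 1.80, 1.56, 1.72 and 1.28. The Cx3cr1 promoter had log2 folds of -3.22, -3.50, -2.98 and -2.58 in C57, BALB, NOD and SPRET. At the Cd36 intron, where PWK had 3.20, these were 0.89, 0.86, 0.57 and 1.20. Basal levels of the other strains are not given here, so these smaller folds do not show lower levels at 24 h. The difference between strains was not tested.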

How the data were processed

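H3K27ac, Pol II, H3K4me2 and H3K4me3 ChIP-seq reads were aligned with Bowtie2 to strain-specific genomes and shifted to mm10 by the authors. The deposited signal values are HOMER tag counts in 1000 bp around ATAC peak centres, normalized by the authors to 10000000 tags. Division by the value of 1 read gave whole reads for 100% of values (tolerance 0.1 read). The authors' deposited peak lists, 1 per factor and condition over its replicates, carry an IDR score per peak. The authors' annotation gave the class of each region. The gene named for a region was that of the nearest protein-coding or long non-coding transcript start in GENCODE, assigned here and not by the authors. limma 3.58.1 (trend) was run on log2(normalized tags + 1) over all regions, with Benjamini-Hochberg adjustment. edgeR 4.0.16 and DESeq2 1.42.0 were run on recovered reads as alternatives. The scripts were tested on simulated data. Same-numbered Pol II libraries deviated together (correlations of 0.47, 0.20 and 0.28), so blocked Pol II values are printed. Exact intervals and floors cover counting error only. P-values measure the spread between these libraries.

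Named regions were the 10 largest changes per direction whose replicates did not overlap, at most 1 per gene, 5 promoters per direction, the 8 genes with most changed regions, and changed members of fixed lists; 1 gene of these is not reported here. Gene models without a known name were passed over (6, 9, 1 and 1). Members and lists were chosen with earlier results of these data known. Alternatives covered the pseudocount, filters, fold limit, scaling, overlapping regions, left-out replicates and the tool.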

Additional observations from a re-analysis of the deposited data

How the results depend on the processing

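Regions higher by the fold rule numbered 3409 without the filter, 2869 at a fold limit of 2, and 2111 to 3053 with 1 replicate left out. Regions lower numbered 1140 at a pseudocount of 5, 4423 at a fold of 2, 974 with median-ratio scaling, and 2139 to 3974 with 1 replicate left out. Higher promoters numbered 138 without the filter, 120 at a fold of 2, 130 within 1000 bp of a gene start, and 77 to 136 with 1 replicate left out. Lower promoters numbered 279 at a fold of 2, 52 with median-ratio scaling, 166 within 1000 bp of a start, and 113 to 272 with 1 replicate left out. Intronic or intergenic regions higher numbered 3062 without the filter, 2592 at a fold of 2, and 1919 to 2766 with 1 left out. Those lower numbered 1031 at a pseudocount of 5, 3966 at a fold of 2, 887 with median-ratio scaling, and 1945 to 3533 with 1 left out. limma rises numbered 95 with median-ratio scaling, 125 in edgeR, 575 in DESeq2, and 0 to 1424 with 1 left out. limma falls numbered 61 with a filter of 16, 2 with median-ratio scaling, 3 in edgeR, 67 in DESeq2, 11 over thinned regions, and 0 to 235 with 1 left out. Where 1 replicate was left out, the lone library was assumed to vary like the other group. The causes were not tested.

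The replicate number was also used as a block. Same-numbered H3K27ac libraries, like those of Pol II, are known to share only the number. They also deviated together (correlation of deviations 0.44), and the block gave 2753 rises and 2895 falls. At the changed regions the block, chosen for these marks after seeing the data, gave Pol II 1082 rises and 740 falls. H3K4me2 had 460 rises (24.6% of higher regions, against 1.56% of all) and 20 falls (1.10% of lower regions, against 0.0980%). H3K4me3 had 336 rises (17.997%, against 2.77%) and 121 falls (6.67%, below the 14.4% of all regions that fell). With 1 replicate left out, Pol II gave 76 to 417 rises and 3 to 102 falls, H3K4me2 0 to 148 and 0 to 1, and H3K4me3 0 to 54 and 0 to 6. Median-ratio scaling gave H3K4me2 16 rises and 0 falls and H3K4me3 0 and 0.

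Peak overlap in the central 300 bp at the higher regions was 74.5% for STAT6, 67.2% for PU.1, 52.4% for C/EBPb, 41.4% for PPARg and 25.6% for EGR2. With the better-scoring 50% of each list it was 59.8%, 46.0%, 34.0%, 23.3% and 14.997%. At the lower regions the central 300 bp gave 77.2% for PU.1, 49.8% for C/EBPb and 28.8% for PPARg, and that 50% gave 37.3% for STAT6, 60.4% for PU.1, 36.2% for C/EBPb, 14.3% for PPARg and 3.31% for EGR2. Shares matched in other strains moved by less than their intervals with centres within 100 bp. Of the 102 named regions, 31 passed limma, and 0 changed direction under any alternative run. They were chosen for the size of their change, so nothing is read from the kept direction. Of the named regions that did not pass, 69 passed with the replicate block and 12 in DESeq2. Of those 31, 17 missed the threshold in edgeR, 18 with median-ratio scaling, 3 in DESeq2, and 31 without either 24 h library.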
